A study of Mus musculus with 11 samples.

Results

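Dmrt3, Dmrta1, Dmrta2 and Hopx were followed across adult mouse astrocytes of 4 brain regions. They are 4 of the 24421 genes listed for each sample, and they were chosen by name because Dmrt3 and Hopx have their highest values in the hippocampus. Astrocytes from brainstem (BS), cortex (CX), hippocampus (HC) and olfactory bulb (OB) of Aldh1l1-eGFP mice had been purified by fluorescence-activated cell sorting and sequenced, with 3 OB, 3 HC, 2 CX and 3 BS samples. Every animal was 16 weeks old, untreated, on a C57BL/6 background and carried the same bacterial artificial chromosome transgene, in which Aldh1l1 sequences drive eGFP. Cells were collected as eGFP-positive, and markers of other cell types were also read, as given below. Males and females were used, and nothing in the labels states whether animals were pooled or shared between regions, so that the spread between samples may be partly technical.

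Dmrt3, Dmrta1 and Dmrta2 encode transcription factors of the doublesex and mab-3 related family, which bind DNA through a zinc finger called the DM domain. Dmrt3 and Dmrta2 (also called Dmrt5) are made by progenitors of the dorsal telencephalon, where Dmrta2 is required for the cortical hem and for growth of the hippocampus. Hopx encodes a small atypical homeodomain protein that does not bind DNA itself and acts through partners such as serum response factor (SRF), histone deacetylase 2 and SMAD proteins. In the adult brain it is known as a marker of astrocytes and of quiescent neural stem cells of the dentate gyrus.

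The choice of genes fixed that Dmrt3 and Hopx are highest in HC, and Dmrta2 and Dmrta1 went against the hippocampal label. Dmrt3 had 281 of its 285 reads in HC libraries, and Hopx was read everywhere with its highest values in HC. Dmrta2 had overlapping values in OB, HC and CX and no read in BS, and Dmrta1 had no read in HC and few elsewhere. Because HC values chose the genes, all contrasts with HC are given for these 4 genes as a description, with no test. Tests were run only among OB, CX and BS, whose order the choice did not use.

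The promoters of Hopx, the most abundant of these genes, and of Dmrta2, the only one with a called difference, are shown so that the values can be read beside the DNA in front of each gene. The sequences come from RefSeq on GRCm38.p6, the build that mm10 names, and cover bases before an annotated start. The stretch before the upstream Hopx start has all 250 bases of the promoter window, whereas the last 10 bases before the downstream Hopx start and the last 36 before the RefSeq start of Dmrta2 are not shown, because they lie in annotated transcripts. Hopx lies on the minus strand and has 2 annotated starts that are 19.9 kb apart, so both stretches are printed 5′ to 3′ in the direction of transcription, the upstream start first (chr5:77115124-77115373) and the downstream start second (chr5:77095278-77095517). Dmrta2 lies on the plus strand (chr4:109977775-109977988). Capitals mark the CArG box, the sequence that SRF binds, and the CCAAT box, the letters CCAAT or on the other strand ATTGG.
Hopx upstream start: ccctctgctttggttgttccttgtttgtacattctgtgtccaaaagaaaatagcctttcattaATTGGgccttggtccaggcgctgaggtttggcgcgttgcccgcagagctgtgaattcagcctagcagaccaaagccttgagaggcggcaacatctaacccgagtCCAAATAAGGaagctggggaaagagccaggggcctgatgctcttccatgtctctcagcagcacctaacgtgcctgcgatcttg
Hopx downstream start: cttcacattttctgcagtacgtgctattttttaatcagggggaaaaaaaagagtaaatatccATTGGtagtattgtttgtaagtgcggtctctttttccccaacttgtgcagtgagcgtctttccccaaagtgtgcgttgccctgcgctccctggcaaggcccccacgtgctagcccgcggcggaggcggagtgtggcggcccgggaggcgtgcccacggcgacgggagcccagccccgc
Dmrta2 start: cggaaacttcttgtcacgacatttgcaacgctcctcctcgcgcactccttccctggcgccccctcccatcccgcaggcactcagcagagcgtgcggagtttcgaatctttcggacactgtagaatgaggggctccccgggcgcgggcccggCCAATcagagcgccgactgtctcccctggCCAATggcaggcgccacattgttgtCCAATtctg

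The upstream Hopx stretch held 1 CArG box, a motif found on either strand in 1.47% of 32851 mouse promoters, each read over the 250 bases before its start. CCAAT stood in 33.8% of promoters, in both Hopx stretches, in 3 copies before Dmrta2, and also before Dmrt3 but not before Dmrta1. None of the 4 genes had TATAAA, present in 12.4% of promoters, or TAATTA, present in 4.84%. CTTTGA (13.8%) and the palindromic NFI site (0.0365%) were likewise not in these windows. The GC content was 52.4% and 57.5% in the Hopx stretches and 62.6% in that of Dmrta2. Matches of letters describe these windows only, and binding of a factor was not measured here.

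Values are normalized read counts, the reads of a gene divided by 1 size factor per sample. Between 2830746 and 14151670 reads per sample fell on genes. A single read was worth from 0.367 to 2.10, depending on a sample's depth. The floor of detection was taken as 3 reads, or 1.10 to 6.31. Floors, Wilson intervals and the exact interval of the rate ratio cover counting error only. The intervals of log2 fold changes come from limma and rest on the spread between samples. Of the 24421 genes, 13875 passed the filter on low counts, among them Dmrta2, Hopx and Dmrt3. Dmrt3 passed only through its HC reads, and Dmrta1 did not pass. In sorted bulk samples, fewer cells that make an RNA and less of that RNA in each cell cannot be told apart.

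Astrocyte markers were read in every library, and none of the 10 was at 0 in any of them. Their summed values were 287911 to 343816 in OB, 309230 to 517182 in HC, 626601 to 703750 in CX and 129146 to 343515 in BS. Markers of other cells differed by region. The 12 choroid plexus markers summed to 106845 to 221659 in HC and 77582 to 370908 in BS, against 2523 to 3069 in OB, where Folr1 and Slc4a5 were at 0 in every library, and 3444 to 8462 in CX. The 10 oligodendrocyte lineage markers summed to 51595 to 88591 in BS, 18458 to 39471 in HC, 18962 to 20437 in CX and 9804 to 16007 in OB. The 12 ependymal markers summed to 445 to 1159 in BS and 459 to 516 in HC, against 230 to 283 in OB and 160 to 258 in CX. The 10 hippocampal neuron markers summed to 707 to 1090 in HC and to 536 to 905 elsewhere. In BS replicate 1 the choroid plexus sum (370908) exceeded the astrocyte sum (129146), and in every other library it was the lower. The 3 libraries with Y-linked reads were 1 each of OB, HC and BS.

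Dmrt3 (ENSMUSG00000042372.5, GRCm38 chr19:25610301-25623921, plus strand) had values of 65.6, 44.8 and 46.6 in the 3 HC samples, from 105, 49 and 127 reads. The CX samples had 2.51 and 3.07, from 2 reads each, and all 3 OB and all 3 BS samples were at 0. HC lay above the other regions with no overlap, and both CX values were under the floor of 3 reads. The means were 52.3 ± 11.5 (SD, n = 3) in HC and 2.79 ± 0.392 (SD, n = 2) in CX. By reads, 281 in HC against 4 in CX gave a rate ratio of 18.8, with an exact 95% counting interval from 7.25 to 69.4. Set against the mean floor of the regions without a read, HC was at least 21.7-fold higher than OB and at least 10.1-fold higher than BS.

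Outside HC, Dmrt3 rested on 4 reads among 41393399 on genes. No test or fold is given for Dmrt3 among OB, CX and BS, since it passed the filter only through HC and each of these regions was at or under the floor.

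**Figure D1:**
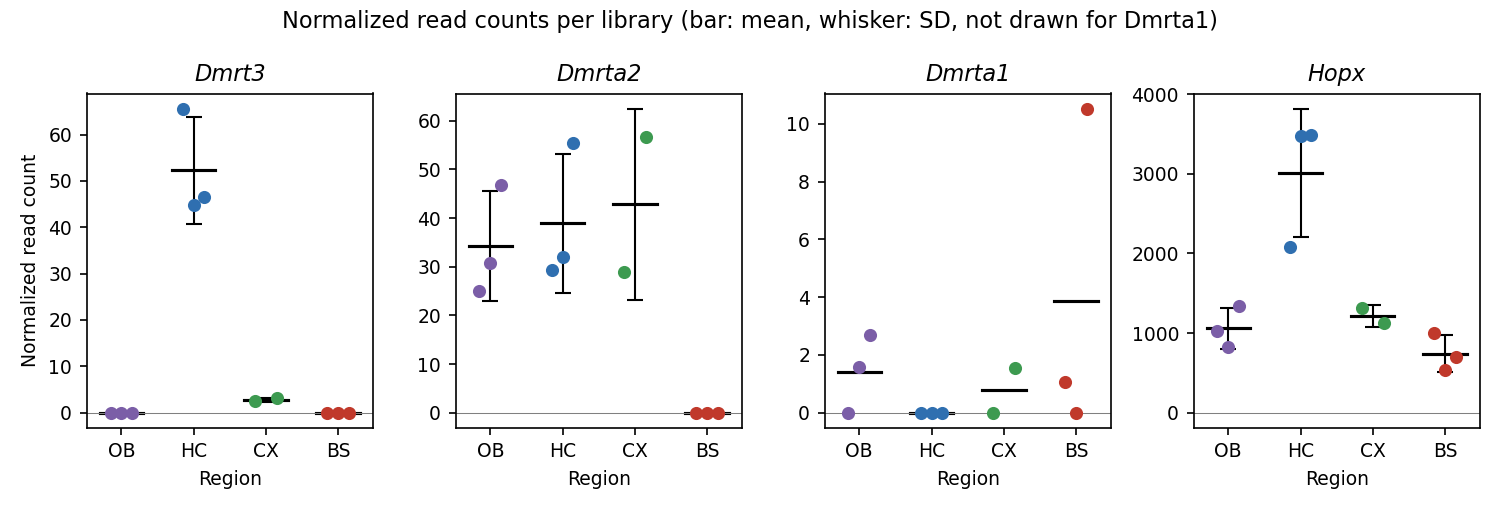
Normalized read counts (vertical axis, from 0, a separate scale per panel) of Dmrt3, Dmrta2, Dmrta1 and Hopx in each library of OB, HC, CX and BS (horizontal axis). Points are libraries, bars are means and whiskers are SD, left out for Dmrta1, which had 14 reads in all. The HC points of Dmrt3 (44.8 to 65.6) and Hopx (2086 to 3481) lie above all others, whereas Dmrta2 is spread over the 3 forebrain regions and is at 0 in BS.

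Dmrta2 (ENSMUSG00000047143.3, chr4:109978053-109983687) was read in all 8 forebrain libraries and in no BS library. Its values were 25.0, 30.8 and 46.9 in OB, 29.4, 32.0 and 55.4 in HC, 28.9 and 56.7 in CX, and 0 in each BS sample. The 3 forebrain regions overlapped throughout, and BS stood apart from them. Means were 42.8 ± 19.7 (SD, n = 2) in CX, 38.9 ± 14.3 (SD, n = 3) in HC and 34.2 ± 11.3 (SD, n = 3) in OB, an order in which no neighbours differed beyond their spread. The mean in CX, not HC, was therefore the highest for Dmrta2.

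Among the regions whose order was not used in the choice, Dmrta2 was higher in OB than in BS (log2 fold change 5.09, SE 0.59, 95% interval 3.83 to 6.35, limma adjusted p = 3.158e-05). It was also higher in CX than in BS (5.38, SE 0.66, interval 3.97 to 6.79, adjusted p = 9.772e-05). These fitted values are on the log2(value + 1) scale and depend on the added 1, because BS had 0 of 11481176 reads. Against the BS floor, whose mean was 5.16, Dmrta2 was at least 6.63-fold higher in OB and at least 8.30-fold higher in CX, and as a description at least 7.54-fold higher in HC. OB and CX did not differ detectably (−0.29, SE 0.66, adjusted p = 0.898), with an interval from −1.69 to 1.12 that leaves room for either to be higher. The F test over OB, CX and BS gave an adjusted p of 2.663e-05 for Dmrta2.

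Called genes were common in these comparisons. At an adjusted p under 0.05, limma called 4.91% of the 13875 genes in OB against CX, 15% in OB against BS, 10.9% in CX against BS and 17.9% by the F test. Of the 2 members tested (Dmrta2 and Hopx), 1 (Dmrta2) was called in OB against BS, in CX against BS and by the F test, and none in OB against CX. In OB against CX, 0 of the 2 had an unadjusted p under 0.05 in limma, and edgeR and DESeq2 called none at an adjusted p under 0.05. The BS libraries had 2830746, 3098215 and 5552215 reads, and those with 2830746 and 3098215 were the shallowest of all. Oligodendrocyte lineage, ependymal and choroid plexus markers were higher in BS than in OB and CX in the sums given above, and their part in the difference of Dmrta2 from BS was not tested.

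**Figure D2:**
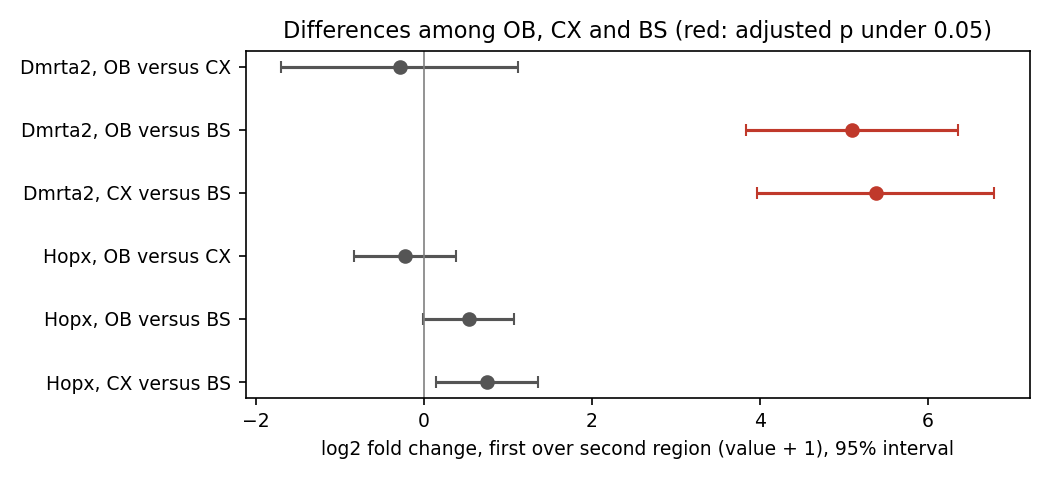
Log2 fold changes of Dmrta2 and Hopx for the 3 pairs among OB, CX and BS (horizontal axis, log2(value + 1) scale, first region over second). Points are limma estimates and bars 95% intervals, red where the adjusted p was under 0.05. Dmrta2 lies at 5.09 and 5.38 against BS, and all 3 Hopx estimates are under 1.

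Dmrt3 and Dmrta2 are close relatives, and their balance can be read within a library, where depth and dissection are shared. Dmrt3 made up 69.1%, 58.3% and 45.7% of the reads on the pair in the HC samples, with 95% Wilson intervals of 61.3% to 75.9%, 47.7% to 68.3% and 39.9% to 51.6%. In CX it made up 8.0% (2.22% to 25.0%) and 5.13% (1.42% to 16.9%). In OB it was 0 of 23, 39 and 87 reads, with upper Wilson bounds of 14.3%, 8.97% and 4.23%. The HC intervals did not overlap those of CX or OB, and those of HC replicates 1 and 3 did not overlap each other. Since Dmrt3 was chosen for its HC values, the shares are a description.

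**Figure D3:**
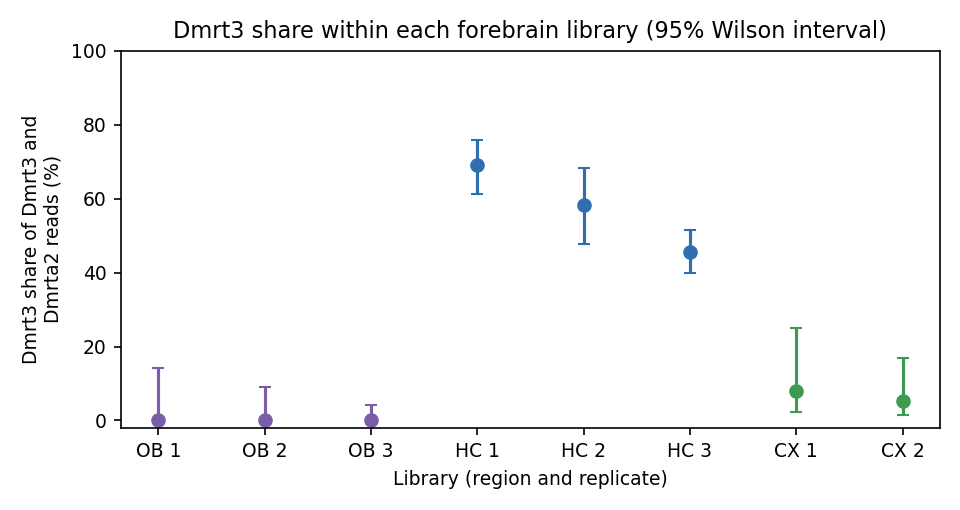
Share of Dmrt3 among reads on Dmrt3 and Dmrta2 (vertical axis, percent) in the 8 forebrain libraries (horizontal axis), with 95% Wilson intervals for counting error. The HC libraries range from 45.7% to 69.1%, CX from 5.13% to 8.0%, and OB is at 0. BS had no read on either gene and is not drawn.

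Dmrta1 (ENSMUSG00000043753.2, chr4:89679436-89694772), the remaining relative, had 14 reads in all, in 5 of the 11 libraries. Its values were 0, 1.58 and 2.69 in OB, 0 and 1.53 in CX, and 1.05, 0 and 10.5 in BS. HC had 0 of 27084946 reads, although it was the most deeply sequenced region. The OB, CX and BS values overlapped, and no difference was detectable (exact permutation test of the F statistic over 560 assignments, p = 0.861). With 14 reads in all, this test could miss even a large difference, so it does not show that the regions are alike. No library held more than 5 of its reads.

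The other members of the family were close to silent in these cells. Of 8 further Dmrt genes listed, none passed the filter, and Dmrt1, Dmrt2, Dmrtb1, Dmrtc1b, Dmrtc1c1, Dmrtc1c2 and Dmrtc2 had no read. Dmrtc1a had 35 reads, 17 of them in 1 OB library and 13 in HC, and its near-identical copies make the assignment of those reads uncertain. Dmrt1 and Dmrt2, which flank Dmrt3 at 5.92 kb and 48.5 kb, are thus without a read in the same HC libraries that held 281 reads of Dmrt3. Beyond Dmrt1, Kank1, which encodes a regulator of the actin cytoskeleton, had its highest mean in OB (756 ± 59.1, SD, n = 3), where it was higher than in CX (limma adjusted p = 0.001656) and BS (0.01082), and a mean of 368 ± 32.7 (SD, n = 3) in HC.

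Hopx (ENSMUSG00000059325.14, chr5:77086988-77115121) was the most abundant of the 4 genes and was read in all 11 libraries, from 266 to 9488 times. Its values were 2086, 3475 and 3481 in HC, 1020, 824 and 1333 in OB, 1312 and 1121 in CX, and 995, 533 and 697 in BS. The lowest HC value lay above the highest of the other regions, an OB sample at 1333. Means were 3014 ± 804 (SD, n = 3) in HC, 1216 ± 135 (SD, n = 2) in CX, 1059 ± 257 (SD, n = 3) in OB and 741 ± 234 (SD, n = 3) in BS. As a description, the HC mean was 2.48 times that of CX, 2.85 times that of OB and 4.07 times that of BS.

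Among OB, CX and BS, no Hopx difference passed the limma test. The log2 fold change was 0.76 for CX over BS (SE 0.29, interval 0.15 to 1.36, adjusted p = 0.109), and the values of these regions did not overlap. It was 0.53 for OB over BS (SE 0.26, interval −0.01 to 1.08, adjusted p = 0.193) and −0.22 for OB over CX (SE 0.29, interval −0.83 to 0.39, adjusted p = 0.783). The F test gave an adjusted p of 0.143. Without BS replicate 1, which had the highest Hopx of its region, CX over BS became 0.99 with an adjusted p of 0.0395, so that 1 library decided this call.

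The HC libraries did not order Dmrt3 and Hopx alike. HC replicate 1 had the highest Dmrt3 value (65.6) and the lowest Hopx value (2086) of the region. It also had the lowest astrocyte marker sum in HC (309230) and was the only HC library with Y-linked reads. Its choroid plexus marker sum (221659) and its endothelial and pericyte marker sum (4085, against 2178 and 882) were the highest in HC, as were Acta2 of smooth muscle (522, against values of 11 or less) and the early response gene Fos (1191, against 293 and 44.0). The part of any of these in the values of Dmrt3 and Hopx was not tested. Without HC replicate 1 the ratio of the HC mean to the next highest region mean was 16.4 for Dmrt3 and 2.86 for Hopx. Choroid plexus markers were abundant in both HC and BS. In BS replicates 1, 2 and 3 their sums were 370908, 77582 and 182284, with no Dmrt3 read and Hopx values of 995, 533 and 697. The part of choroid plexus cells in either gene was not tested. Of the 9 hippocampal neuron markers tested, 3 were higher in HC by the unadjusted rule given further on (Neurod6, Fibcd1 and C1ql2), and no HC library had any of the 10 listed at 0. Neurod6, a transcription factor of excitatory neurons, had a mean of 56.2 in HC, 10.9 in CX, 3.16 in BS and 0.180 in OB. Prox1 and Dsp, of the same list, had higher means in BS (203 and 153) than in HC (177 and 104). The 12 general neuron markers summed to 1404 to 2652 in HC, 2206 to 3807 in OB, 2460 to 3131 in CX and 3079 to 4140 in BS. Of these 12, 1 (Gad2) was lower in HC by the same rule and none higher. The part of neurons in the HC values was not tested.

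Read levels can be compared between genes only per length. Per kilobase of annotated exon, normalized reads of Hopx were 1988 in HC, 802 in CX, 699 in OB and 489 in BS. On the same per kilobase scale Dmrt3 stood at 21.4 in HC and 1.14 in CX. Dmrta2 was at 14.7 in CX, 13.3 in HC and 11.7 in OB. By these HC means, Dmrt3 exceeded Dmrta2 per length, and Hopx exceeded both by a wide margin. Before scaling to length, Dmrt3 had more reads than Dmrta2 in HC replicates 1 (105 against 47) and 2 (49 against 35). In HC replicate 3 it had fewer (127 against 151). Lengths were those of GENCODE exons, whereas reads had been counted on UCSC transcripts. The antisense genes Dmrta2os and Hopxos overlap Dmrta2 and Hopx, and since counting by strand is not stated, their reads cannot be told apart from those of the members.

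The genes whose pattern was most like that of each member were named by Pearson's r of log2(value + 1) over the 11 samples, which share libraries and regions, so that r is a description. For Dmrta2 the genes so named included Lhx2 (r = 0.987), which encodes a transcription factor that acts as a selector of cortical fate. Lhx2 had means of 1246 in OB, 1525 in HC and 2143 in CX, and 4.07 in BS. Like Dmrta2, it was thus read across the forebrain and was near the floor in BS.

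For Dmrt3 the most similar genes were Thbs4 (r = 0.904), Elmsan1 (0.904) and Grtp1 (0.901). Thbs4, a secreted thrombospondin, had values of 185, 300 and 127 in HC and 41.5 and 99.7 in CX, and no value above 4.21 in OB or BS. For Hopx they were Gapdhs (0.927), Smad4 (0.926) and E330013P04Rik (0.917), and E330013P04Rik had means of 89.9 in HC, 14.6 in CX, 6.29 in OB and 0 in BS. Those named for Dmrta1 (Nup35, Lin9 and Nrg2, r from 0.821 to 0.852) rest on its 14 reads.

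Genes that pattern the dorsal telencephalon and the cortical hem, the setting in which Dmrt3 and Dmrta2 act during development, were compared as a list of 25, of which 22 were tested. At an adjusted p under 0.05, 9 were higher and 5 lower in OB than in BS, 7 higher and 5 lower in CX than in BS, and 2 higher and 4 lower in OB than in CX. Over all genes tested, the shares called in either direction were 15%, 10.9% and 4.91%. Median log2 fold changes were 0.40, 0.42 and −0.25, against 0.02, −0.03 and 0.01 over all genes tested. Lhx2 was higher than BS in both OB (log2 fold change 8.13, SE 0.33, limma adjusted p = 5.224e-10) and CX (8.92, SE 0.36, adjusted p = 9.141e-10), the pair of comparisons in which Dmrta2 was called.

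Within the forebrain, some of the dorsal genes differed between OB and CX, where no difference of Dmrta2 was detected. Emx2, which is needed for hippocampal growth, had means of 442 in HC and 508 in CX against 64.5 in OB and 0.668 in BS, and was lower in OB than in CX (log2 fold change −3.02, SE 0.51, limma adjusted p = 0.002622). Nr2f1, a patterning factor of caudal cortex, was likewise lower in OB (mean 69.4) than in CX (291) and stood at 414 in HC. Fezf2 had means of 266 in HC, 195 in CX, 71.9 in OB and 0 in BS, and its difference between OB and CX did not pass (limma adjusted p = 0.130). Sp8, a regulator of olfactory bulb interneurons, was at 264 in OB and at 0.304 in HC.

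Other members of the dorsal list were high in BS. Otx2 had means of 1426 in BS and 650 in HC against 102 in CX and 41.1 in OB, and Lmx1a had 106, 30.3, 8.58 and 0. Wnt8b and Msx1, a signal and a factor of the dorsal midline, were also higher in BS than in OB and CX, and Wnt3a had no read in any library. Otx2, Lmx1a and Msx1 had higher means in HC and BS than in OB and CX. The sum of the choroid plexus markers, of which Otx2 is itself 1, was likewise higher there. Not every marker followed the sum, as Aqp1 had means of 169 in OB and 167 in HC. The part of choroid cells in Otx2, Lmx1a and Msx1 was not tested. Wnt8b had values of 7.36, 80.1 and 27.4 in BS, from 7, 40 and 13 reads, and at most 3.30 in HC. For Wnt8b, too, the part of choroid cells was not tested.

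**Figure D4:**
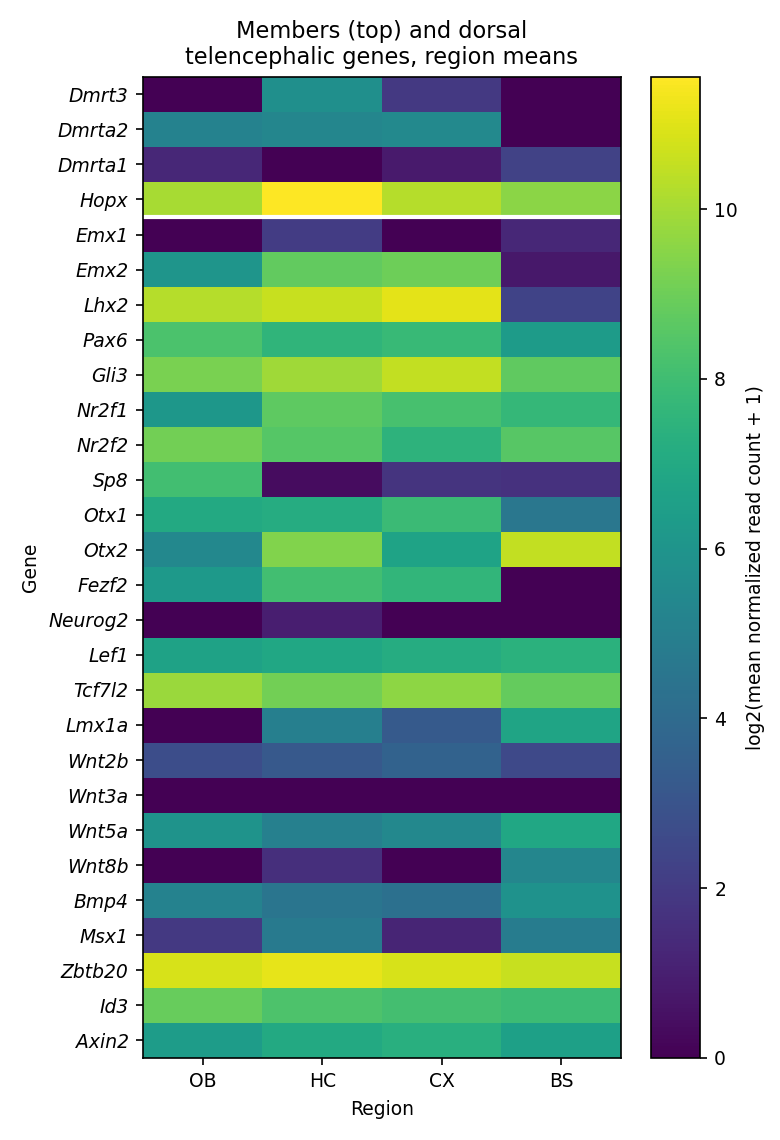
Region means as log2(mean normalized read count + 1) (colour scale) for the 4 members above the white line and for dorsal telencephalic and cortical hem genes below it (vertical axis), by region (horizontal axis). Dmrta2 shares with Lhx2, Emx2 and Fezf2 a dark BS column, and Dmrt3 is brightest in HC.

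For HC against the 8 other samples, a gene was called where its fold change exceeded 1.5 with p below 0.01 and its value exceeded 5 in 2 or more replicates of a region. The numbers are those of the study, whose text does not say whether p was adjusted, and the unadjusted p was used here. The study set its cut of 5 on RPM, a value scaled to the total reads of a library. Here the cut was set on normalized read counts, a different unit, so the rule is not exactly that of the study. The study also required a change in the respective region alone, which was not applied. By this rule 0.281% of the 13875 genes were higher and 1% lower in HC, in all 178, and none passed an adjusted p under 0.05 in limma, with 789 at an unadjusted p under 0.05. The same rule gave 188 genes with edgeR and 419 with DESeq2. None of the 22 tested dorsal genes was called by limma in either direction (4 had an unadjusted p under 0.05), with a median log2 fold change of 0.39 against 0.02 over all genes. Of 8 tested genes of the ventral telencephalon none was called (2 had an unadjusted p under 0.05), Isl1 had no read in any library, and Gsx2, a ventral progenitor factor, had no read in HC or BS. In OB against BS, where 15% of all genes tested were called, 3 of the 8 were higher and none lower. These were Dlx1, Dlx2 and Dlx5, which specify interneurons. Six3 was called in OB against CX, where 4.91% of all genes were called, and was lower in OB. In CX against BS, where 10.9% of all genes were called, Six3 was higher in CX and Olig1 was lower in CX.

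Partners of Hopx showed no regional call. Of 10 listed (SRF, its coactivators, histone deacetylase 2, SMAD and cardiac factors), 6 were tested and limma called none in any of the 4 comparisons. Over all genes tested, 4.91% were called in OB against CX, 15% in OB against BS and 10.9% in CX against BS. For HC 0.281% were called higher and 1% lower, so few or no calls among 6 genes say little about the partners. Gata4 and Nkx2-5 had no read. Smad4, the common mediator of TGF-beta and BMP signals, had values of 327, 427 and 416 in HC and between 230 and 339 elsewhere, so that the groups overlapped. Its HC difference was 0.44 on the log2 scale (SE 0.16, limma adjusted p = 0.785), the 1 unadjusted p under 0.05 among the 6 in that contrast, with 0, 1 and 0 in OB against CX, OB against BS and CX against BS. Of 10 tested SRF targets, 1 was called in OB against CX, where 4.91% of all genes were called, and none in the other comparisons. It was Vcl, the focal adhesion protein vinculin, which was lower in OB than in CX (−1.25, SE 0.24, limma adjusted p = 0.006742).

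Neural stem cell and radial glia genes, among which Hopx is often counted, were 20 in number with 19 tested. In OB against BS 7 were higher and none lower, in CX against BS 6 were higher and 1 lower, and in OB against CX 4 were higher and 1 lower. Over all genes tested, 15%, 10.9% and 4.91% were called in these comparisons, in either direction. Fabp7, a fatty acid binding protein of radial glia, had a mean of 14360 in OB against 1183 in CX and 699 in BS. The Notch target Hes5, the matrix protein Tnc and the glutamate transporter Slc1a3 were each higher in OB and in CX than in BS, with BS means of 19.5, 12.2 and 4470. In HC 1 of the 19 was called higher and none lower. It was Thbs4, with a log2 fold change of 5.23 (SE 1.26, limma adjusted p = 0.407), which passed the unadjusted rule only.

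Intermediate progenitor and neuroblast genes, which mark the stages after a Hopx-positive stem cell, were 15 with 11 tested. In OB against BS 3 were higher and 2 lower, in OB against CX 3 were higher and 1 lower, and in CX against BS 2 were higher and none lower. The shares called over all genes tested were 15%, 4.91% and 10.9%, in either direction. Dcx, a microtubule protein of migrating neuroblasts, had a mean of 349 in OB, 44.5 in CX, 19.7 in BS and 15.5 in HC, where Hopx was highest. Prox1, a factor of dentate granule neurons, was lower in OB (19.9) than in CX (81.9) and BS (203) and had a mean of 177 in HC. In HC 1 gene was called lower, Calb2 (calretinin), with means of 2.86 in HC, 6.70 in CX, 17.5 in BS and 64.5 in OB, and it passed the unadjusted rule only (limma adjusted p = 0.648). Eomes, a factor of intermediate progenitors, had no read in HC or CX.

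The genes next to Dmrta2 and Hopx were read in the same samples. Faf1, which lies next to Dmrta2, was read in all regions, with means from 111 to 170, and BS at 144. Cdkn2c, an inhibitor of cyclin-dependent kinases 311 kb away, was higher in CX (70.4) than in BS (9.43), as Dmrta2 was (limma adjusted p = 0.006611), but had reads in BS. Elavl4 on the other side was lower in HC by the unadjusted rule (log2 fold change −1.60), with a mean of 28.1. Of the neighbours of Hopx, Thegl, 1700112J05Rik and Spink2 had no read, and Rest, a repressor of neuronal genes, had means from 116 to 137 with no called difference.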

How the data were processed

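RNA of eGFP-sorted astrocytes was sequenced from 11 samples, whose labels gave the region that grouped them. The authors mapped reads to mm10 with STAR 2.5.0a, counted them on UCSC transcripts and divided counts by DESeq2 1.20.0 size factors, and this normalized signal was deposited. All non-zero values were whole multiples of 1 step per sample (tolerance 0.05 of a read), so reads were recovered.

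The members and gene lists were chosen with earlier results of these data known. Genes were filtered with filterByExpr of edgeR 4.0.16 and tested with limma 3.58.1 in R 4.3.3, two-sided, with 1 mean per region, a mean-variance trend and log2(value + 1) as the response, with Benjamini-Hochberg adjustment over 13875 genes. HC against the pooled others used the numbers of the study's thresholds, with unadjusted p and the cut of 5 on normalized read counts in place of RPM. List genes named are at most 4 per list and comparison by absolute log2 fold change among those called, and those without a read. The 3 most similar genes and the 2 nearest on each side of a member were named too. Gsx2, Dmrtc1a, Otx2, Wnt8b, Msx1, Acta2 and Fos were named after their values were seen. Some genes that these rules name are not reported here. Alternatives were edgeR, DESeq2 1.42.0, RLE factors, a pseudocount of 0.25, no filter, the samples of a pair alone, a replicate block and left-out samples. The limma and edgeR fits were also run on simulated counts with known fold changes, and the outcome is not reported here. Python 3.11.15 with scipy 1.17.1 was used. Gene coordinates are those of GENCODE on GRCm38.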

Additional observations from a re-analysis of the deposited data

How the results depend on the processing

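Of 42 alternatives to the 6 tests of Dmrta2 and Hopx in a pair of regions, other than left-out samples, all 42 kept the direction and the side of the threshold. Of 32 fits with a sample left out 30 did so. Hopx in CX over BS passed the threshold without BS replicate 1 (0.99), with a range of 0.54 to 0.99 over left-out samples. Dmrta2 in OB over CX changed sign without CX replicate 2 (0.19), with a range of −0.76 to 0.19. Leaving out a CX sample leaves 1, assumed to vary like the other regions. The adjusted p of Dmrta2 ranged over alternatives from 3.595e-06 to 0.002036 for OB over BS and from 3.553e-06 to 0.03303 for CX over BS.

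Numbers of genes called in HC against the other regions depended on the method. The 178 became 0 with an adjusted p under 0.05, 419 with DESeq2 and 666 where every region had its own mean, and 110 to 278 with a sample left out (110 without HC replicate 2, 278 without BS replicate 1). The 2 genes called in lists other than cell type markers, Thbs4 and Calb2, became 0, 5 and 19 under the same alternatives, and 1 to 6 with a sample left out (1 without HC replicate 2, 4 without CX replicate 2, 6 without CX replicate 1). The cause was not tested.

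Taken over all regions together, replicate numbers did not clearly pair the samples. Deviations of samples with the same number correlated at −0.16 to 0.25 (median 0.0229), and 3 of 15 pairs were over 0.1. OB and HC differed from this, with 0.195, 0.074 and 0.25 for replicates 1, 2 and 3. Their pairs with different numbers lay between −0.224 and 0.0283. Replicate 1 was also the library with Y-linked reads in both OB and HC. Whether OB and HC samples came from the same animals was not tested. With a replicate block, Dmrta2 was 5.09 in OB over BS and 5.55 in CX over BS, and Hopx was 0.85 in CX over BS (adjusted p = 0.0731, limma), and no call among the 6 tests changed. The planned tests of Dmrt3 among OB, CX and BS are not reported, since it passed the filter only through HC. The ratio of the HC mean to the next highest region mean, with a sample left out, was 16.4 to 20.8 for Dmrt3 and 2.29 to 2.86 for Hopx. Depth limits Dmrt3 and Dmrta1 outside HC, where both rest on few reads.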
